A study of Mus musculus with 2 samples.

Results

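The transcripts described here are those of 9 complement genes, namely the C1q chain genes C1qa, C1qb and C1qc, the component genes C3, C4b and C6, the properdin gene Cfp, and the anaphylatoxin receptor genes C5ar1 and C3ar1. They were picked by gene symbol from the 20938 genes of the tables, and all 9 were found. The genes were proposed after the difference between the libraries had been seen, so their differences are given as a description with no test. RNA-seq of Treg cells purified from the spleen gave 1 library per genotype on day 7 after islet transplantation. The cKO library came from Foxp3-Mettl14f/+ cKO mice, in which Cre driven by the Foxp3 promoter acts on 1 floxed Mettl14 allele. The control library came from littermate controls, which the study's genotyping gives as Mettl14f/f and the sample label as wild type. The label of the cKO library calls its genotype a Foxp3 knockdown, and the genotype of the study's methods is used here. Recipients of both groups were on a C57BL/6J background, were made diabetic with streptozotocin, carried BALB/c islets under the kidney capsule and had not been given the tolerance-inducing antibodies. Ages and the number of mice behind each library are not given in the sources used here. Cells other than CD4+ T cells were removed with magnetic beads before the CD4+CD25+ cells were selected.

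Complement is a cascade of plasma and cell-derived proteins that tag targets and recruit phagocytes. In the classical pathway C1q, a bundle of A, B and C chains, binds immune complexes or dying cells and starts the cleavage of C4 and then of C3. Properdin stabilises the alternative pathway convertase, C6 is a subunit of the membrane attack complex, and the small fragments C3a and C5a act through the receptors encoded by C3ar1 and C5ar1. In the spleen, C1q is made mainly by macrophages and dendritic cells, whereas properdin and C5ar1 are typical of neutrophils and other myeloid cells.

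The C1q chains carried the widest difference among those of the 9 genes with reads in both libraries, so a coding stretch that all 3 share is shown. Each chain has a collagen-like stem in which glycine opens every Gly-X-Y repeat, and these genes lie next to each other on the minus strand of chromosome 4 within 18.7 kb of GRCm38 (136880129 to 136898803). The longest unbroken run of such repeats, read from the GENCODE vM21 transcripts, is printed with the glycine codons in capitals. It spans codons 62 to 109 of C1qa, 31 to 117 of C1qb and 68 to 115 of C1qc.
C1qa: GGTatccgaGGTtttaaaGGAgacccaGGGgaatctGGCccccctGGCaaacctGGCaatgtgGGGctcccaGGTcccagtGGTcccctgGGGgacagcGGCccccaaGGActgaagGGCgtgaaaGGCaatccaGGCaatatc
C1qb: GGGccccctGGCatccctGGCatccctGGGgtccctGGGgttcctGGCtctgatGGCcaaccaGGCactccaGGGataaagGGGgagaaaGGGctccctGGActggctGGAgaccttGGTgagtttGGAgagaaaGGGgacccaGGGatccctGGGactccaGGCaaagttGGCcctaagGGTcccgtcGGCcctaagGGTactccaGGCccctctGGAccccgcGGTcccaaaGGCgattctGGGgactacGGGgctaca
C1qc: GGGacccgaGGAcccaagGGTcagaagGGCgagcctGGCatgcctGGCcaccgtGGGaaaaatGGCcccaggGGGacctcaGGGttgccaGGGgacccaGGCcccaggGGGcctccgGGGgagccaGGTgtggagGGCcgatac
The runs hold 16, 29 and 16 repeats, and in C1qa and C1qc a further run of 10 and 11 repeats lies upstream, from codons 31 and 32. Although the chains share this pattern, none of the 50-base windows of their transcripts occurred in the transcripts of another gene, so reads of that length can be told apart between them.

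Each deposited value is a read count divided by 1 size factor per library, and whole reads were recovered for 100% of the values of both libraries (within 0.001 of a read). The recovered reads summed to 20239325 for the control and 18327535 for the cKO. A level is the deposited value, and fold changes set the cKO against the control on the log2 scale after adding 1 to both levels. Genes whose mean level was below 1 were left out. Beside them stand 95% intervals by the exact Clopper-Pearson method, computed on the ratio of recovered reads. Only counting error of reads taken as independent is covered. The reads carry no molecular identifiers and may be copies of 1 molecule, so the intervals can be too narrow even for that. With 1 library per genotype no difference has a replicate check. Mettl14 had 948 reads in the control and 652 in the cKO, with a log2 fold change of -0.31 (95% interval -0.45 to -0.16). Markers of T cells and of Treg cells were present in both libraries, with Foxp3 at 1547 and 1361 reads. Markers of other cells were present too. Reads of the 16 granulocyte markers came to 281399 in the control and 329278 in the cKO, against 55948 and 37894 for the 15 T cell core genes found. The depth limits what can be seen, and 3 reads, used as the floor, correspond to 0.148 and 0.164 per 1000000 reads.

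At a threshold of 1.5-fold, 6 of the 9 genes were higher in the cKO library and 0 were lower. The 6 were C1qa, C1qb, C1qc, C4b, C6 and C5ar1. Over all 16659 genes compared, 17.2% passed that threshold as higher and 24.2% as lower. Because the genes were chosen on this contrast, nothing is read from their count. Their median log2 fold change was 2.45, with C6 at its ratio to the floor as well, and that of all genes was -0.04. The recovered reads of the 9 genes summed to 8890 for the control and 13043 for the cKO. C3 held 81.1% of these reads in the control and 70.0% in the cKO library, while the share of the C1q chains was 1.97% and 10.2%. In a bulk library, more cells of a type and more RNA per cell cannot be told apart.

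The initiating component C1q was higher in the cKO library in each of its chains, by 7.88-fold to 11.2-fold. C1qa, on chromosome 4 from 136895917 to 136898803, encodes the A chain and had 53 reads in the control and 376 in the cKO library. Its level was 51.3 and 428, with a log2 fold change of 3.04 (95% interval 2.64 to 3.50). C1qb, from 136880129 to 136886187, encodes the B chain and had 47 and 448 reads, or levels of 45.5 and 509. Its log2 fold change was 3.46 (3.05 to 3.95), which was 11.2-fold without the pseudocount. The C chain gene C1qc, from 136889804 to 136893065, had 75 and 503 reads, or levels of 72.6 and 572. The log2 fold change of C1qc was 2.96 (2.63 to 3.35). The intervals of all 3 chains overlapped one another, and no difference between the chains was tested. Summed over the chains there were 175 reads for the control and 1327 for the cKO, which was 8.91-fold (log2 interval 2.93 to 3.39).

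Per kilobase of exon and 1000000 reads, a scale that allows genes to be compared within a library, the chains lay near one another. In the control library the levels per length were 2.52 for C1qa, 2.13 for C1qb and 1.92 for C1qc, so that the highest was 1.31 times the lowest. In the cKO library they were 19.7, 22.5 and 14.2, and the highest was 1.58 times the lowest. The exon length used for C1qc includes the exons of a further non-coding transcript and so lowers its value on this scale. By level per length C1qb stood at rank 9784 of the 15915 genes above 0 with a length in the control library, and at rank 2309 of 14321 in the cKO library.

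**Figure D1:**
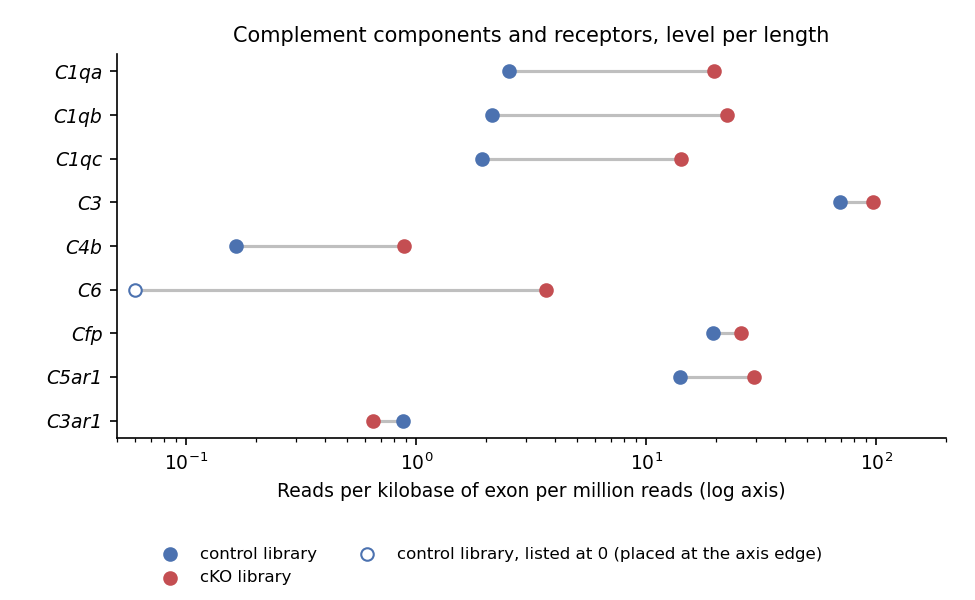
Level per length of the 9 complement genes, in reads per kilobase of exon per 1000000 reads on a log axis, with 1 point per library and a grey line joining the libraries of a gene. C3 is the highest gene in both libraries at 69.3 and 96.9, the C1q chains move from near 2 to between 14.2 and 22.5, and C6, drawn open at the axis edge for the control library because it is listed there at 0, reaches 3.65.

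The stretch before the start sites of the C1q genes was examined for short motifs of factors active in myeloid cells. RefSeq promoters of GRCm38.p6 were given for 7 of the 9 genes, and C1qa and C4b are named only. The 250 bases before each start were searched on both strands for GAGGAA (the PU box of the PU.1 factor), TGCTGA (a half-site of Maf factors), GAAA followed after 2 bases by GAAA (a spacing seen in interferon response elements) and TGANTCA (AP-1). The PU box was present once before C1qb and once before C1qc, and in none of the other 5 promoters. It occurred in 23.3% of the 32851 promoters of the table, so a match by itself is common. Sequence before the start is shown for the C1q genes in the direction of the gene, with the motif matches in capitals. For C1qb it is chr4:136886201-136886450, and for C1qc the part of the window outside the GENCODE transcript, chr4:136893066-136893164, both on the minus strand.
C1qb: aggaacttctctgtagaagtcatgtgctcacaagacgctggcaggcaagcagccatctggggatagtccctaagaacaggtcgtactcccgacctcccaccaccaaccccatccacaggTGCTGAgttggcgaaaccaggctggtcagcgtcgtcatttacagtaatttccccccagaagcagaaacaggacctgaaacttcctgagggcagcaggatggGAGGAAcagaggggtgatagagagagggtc
C1qc: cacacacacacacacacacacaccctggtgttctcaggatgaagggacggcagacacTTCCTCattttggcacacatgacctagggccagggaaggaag
The capitals before C1qb are a Maf half-site, which begins 131 bases before the start, and a PU box, which begins 30 bases before it. Before C1qc the capitals TTCCTC are the PU box on the other strand, beginning 193 bases before the RefSeq start. That start lies inside the GENCODE span of C1qc, so the PU box is nearer to the GENCODE start. The Maf half-site also stood once before the RefSeq starts of C3, C5ar1 and C3ar1 and was present in 16.1% of all promoters. For C5ar1 it begins 17 bases before the RefSeq start and lies inside the GENCODE span of the gene. An AP-1 match was found before C3ar1, as in 6.75% of all promoters, and the interferon-type motif, present in 2.98%, was not found before any of the 7 genes. For C6 and Cfp none of the 4 motifs was in this window. These matches describe letters only and say nothing of binding.

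The thioester components C3 and C4b, which become covalently attached to targets once cleaved, differed in abundance and in the size of the difference. C3, on the minus strand of chromosome 17 from 57203970 to 57228136, was the most abundant of the 9 genes. It had 7212 reads in the control and 9134 in the cKO library, or levels of 6977 and 10387. The log2 fold change of C3 was 0.57 (95% interval 0.53 to 0.62), or 1.49-fold, just under the 1.5-fold threshold, and the interval includes that threshold. By level per length C3 ranked 487 in the control and 309 in the cKO library. C4b, on the same chromosome from 34728380 to 34743882, encodes the fourth component and had 19 and 92 reads. Levels of C4b were 18.4 and 105, a log2 fold change of 2.45 (1.79 to 3.30). Of the 50-base windows of the C4b transcripts, 34.6% also occurred in those of the near-identical gene C4a, so the split of reads between them is uncertain. C4a had 15 and 16 reads, and the sum of both genes was 34 and 108 reads, a 3.73-fold difference (log2 interval 1.33 to 2.50).

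C6, the terminal component that binds C5b and C7 in the membrane attack complex, was listed at 0 in the control library and had 238 reads in the cKO library, a level of 271. It lies on chromosome 15 from 4727175 to 4814967, overlaps no other annotated gene and shares none of its 50-base windows. If the 0 is a count of reads, the level in the cKO library was 93.3-fold that of 3 reads, the floor, in the control library. This ratio is not a lower bound. The lower end of the two-sided 95% interval was 75.3-fold, or 6.23 on the log2 scale. Zeros at this depth were rare in both directions. Of 998 genes with at least 200 and fewer than 300 reads in the cKO library, 2 were listed at 0 in the control library, and of 854 genes with that many reads in the control library, 1 was listed at 0 in the cKO library. At lower depth zeros were frequent, with 158 of 836 genes with 10 to 19 reads in the cKO library listed at 0 in the control library, and 610 of 1224 the other way. C7 and C9, which lie on the same chromosome and act after C6, had 0 reads in both libraries.

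Properdin, the positive regulator of the alternative pathway, differed less. Cfp, on chromosome X from 20925454 to 20931555, had 681 reads in the control and 817 in the cKO library, or levels of 659 and 929. Its log2 fold change was 0.50 (95% interval 0.35 to 0.64), or 1.41-fold, which is under the 1.5-fold threshold although the interval reaches past it.

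The anaphylatoxin receptors, G protein-coupled receptors that draw and activate myeloid cells, differed in opposite directions as measured. C5ar1, on chromosome 7 from 16246743 to 16259540, had 727 reads in the control and 1384 in the cKO library, or levels of 703 and 1574. The log2 fold change of C5ar1 was 1.16 (95% interval 1.03 to 1.29), or 2.24-fold. C3ar1, on chromosome 6 from 122847138 to 122856161, had 76 and 51 reads, or levels of 73.5 and 58.0. It was the only one of the 9 genes with a lower level in the cKO library, with a log2 fold change of -0.34, and its interval of -0.88 to 0.19 includes 0. Both intervals hold counting error only, and the contrast between the receptors was not tested. Per length, C5ar1 was 16 times as abundant as C3ar1 in the control library and 45.5 times in the cKO library. C5ar2, the second C5a receptor, which does not couple to G proteins, was not among the 9 genes and had 269 and 472 reads, a log2 fold change of 1.04 (0.83 to 1.27).

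The values depended on which genes were held equal between the libraries. After T cell core genes were set equal, which put the median over all genes at 0.28 in place of -0.04, 8 of the 9 genes were higher by 1.5-fold or more, C3 at 0.90 and Cfp at 0.82 being added, beside 29.6% of all genes. C3ar1 was then at -0.01. Setting 20 macrophage markers equal moved the median of all genes to -1.18. Relative to those markers, 5 of the 9 genes passed the threshold as higher and 2 as lower, beside 5.61% and 82.0% of all genes. The log2 fold change was then 1.90 for C1qa, 2.32 for C1qb, 1.83 for C1qc and 1.32 for C4b. C5ar1 was at 0.02 on that scale, C3 at -0.56, Cfp at -0.64 and C3ar1 at -1.45. Lyz2, which granulocytes and monocytes also express, held 72.4% of the macrophage marker reads in the control and 58.9% in the cKO library. Without Lyz2 the summed C1q chains were at 1.44, C4b at 0.77, C5ar1 at -0.55 and C3 at -1.14, and 5 genes were higher and 3 lower, beside 3.53% and 91.7% of all genes. This last scaling was added after the data had been seen.

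**Figure D2:**
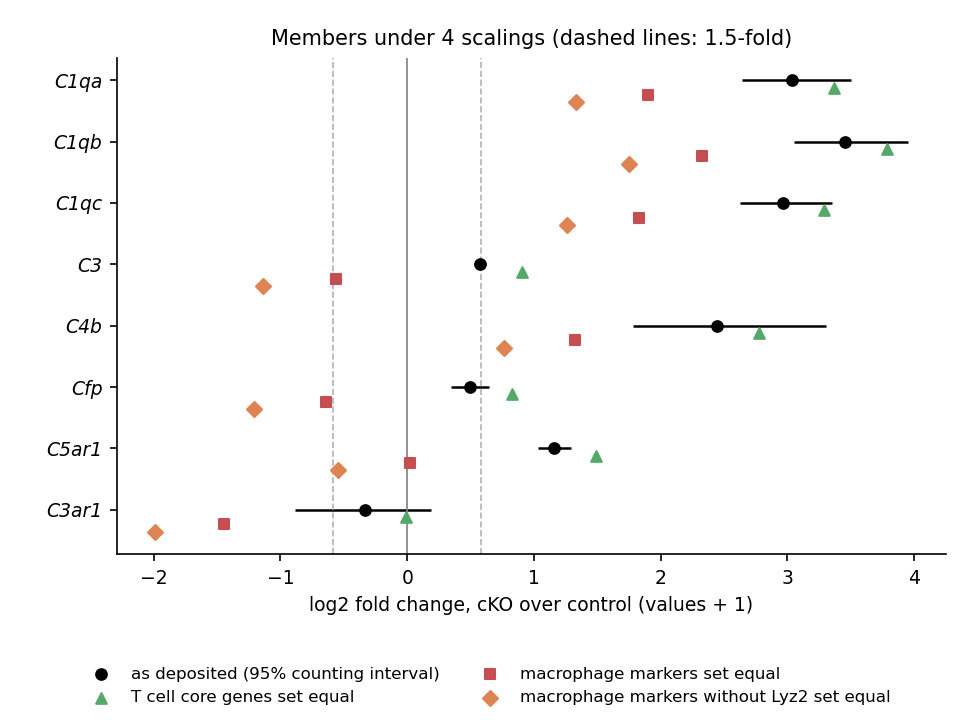
Log2 fold change (cKO over control, levels plus 1) of the 8 complement genes with reads in both libraries, as deposited with 95% counting intervals and under 3 scalings that set marker genes equal. C1qa, C1qb, C1qc and C4b lie to the right of the 1.5-fold line under every scaling drawn, whereas C3, Cfp and C5ar1 lie to the right of 0 as deposited and C3 and Cfp to the left of it when macrophage markers are set equal.

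Markers of other cell types differed between the libraries along with these genes, and the part of those cells in the complement values was not tested. All 20 macrophage markers passed the 1.5-fold threshold as higher in the cKO library, beside 17.2% of all genes. The marker lists were chosen with earlier results of these data known. Vsig4, a receptor of tissue macrophages outside this list, had 19 and 18 reads. The summed level of the 20 markers was 29022 in the control and 63900 in the cKO library. Lyz2, Csf1r and Apoe had the most reads in the control library, and Marco and Timd4 were at 0 there with 20 and 89 reads in the cKO library. Among the 18 markers with reads in both libraries the log2 fold change ran from 0.78 for Slc40a1 to 4.38 for Cd5l. Of these, Mertk, Vcam1 and Cd5l exceeded the lowest C1q chain, and 0 lay below C3. The reads of the C1q chains per 1000 macrophage marker reads were 5.83 in the control and 23.6 in the cKO library, or 21.1 and 57.5 without Lyz2. Set against single markers, which were chosen after their values were seen, the number of C1q reads per read of Vcam1 was 0.557 and 0.5, per read of Mertk 5.0 and 3.72, per read of Cd5l 6.73 and 2.77, and per read of Adgre1 0.506 and 1.86. Per read of Csf1r it was 0.0797 and 0.32, and per read of Lyz2 0.00806 and 0.0401. The ratios to Vcam1 and Mertk differed between the libraries by less than 1.5-fold, and those to Adgre1, Cd5l, Csf1r and Lyz2 by more.

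The genes of the receptors and of properdin stood in other ratios to these lists. C5ar1 had 24.2 reads per 1000 macrophage marker reads in the control and 24.6 in the cKO library, and 2.58 and 4.20 per 1000 granulocyte marker reads. C3ar1, with few reads, had 2.53 and 0.908 per 1000 macrophage marker reads and 0.27 and 0.155 per 1000 granulocyte marker reads. Cfp had 22.7 and 14.5 reads per 1000 macrophage marker reads and 2.42 and 2.48 per 1000 granulocyte marker reads. C3 had 240 and 163 reads per 1000 macrophage marker reads, 25.6 and 27.7 per 1000 granulocyte marker reads and 129 and 241 per 1000 T cell core reads. The granulocyte sum rests largely on a few genes, with S100a9 alone at 76931 and 89733 reads. What these ratios owe to any cell type was not tested. For the granulocyte markers the median log2 fold change was 0.45, with 4 of 16 (25.0%) at least 1.5-fold higher and 3 (18.8%) lower beside 17.2% and 24.2% of all genes, a summed level of 272222 and 374442, and none at 0. In the monocyte list 5 of 8 markers (62.5%) were higher, beside 17.2% of all genes, with a summed level of 19719 and 37985, and none was at 0. All 12 B cell markers were higher, beside 17.2% of all genes, from a summed level of 8862 to 44917, with none at 0. The 8 dendritic cell markers had a median of 0.10 and 1 of them (12.5%) was higher, beside 17.2% of all genes. Their summed levels were 1731 and 1989, with none at 0.

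Cells outside the blood lineages were little represented. The 13 stromal markers summed to 2898 and 3030 reads, of which Pecam1, also expressed by leukocytes, had 2339 and 2836, and Col3a1, Pdpn, Ccl21a and Cxcl13 were at 0 in both libraries. The 8 hepatocyte markers, for the main source of plasma complement, summed to 34 and 22 reads, and Apoa1, Ttr, Fgb and Fgg were at 0 in both. Among the 15 T cell core genes found, 3 (20%) were at least 1.5-fold lower and 0 higher, beside 24.2% and 17.2% of all genes, from a summed level of 54123 to 43091. In the Treg list 2 of 12 (16.7%) were higher and 2 lower, near the shares over all genes, with a summed level of 10577 and 11579. In the erythroid list 5 of the 9 markers found (55.6%) were lower, beside 24.2% of all genes, from a summed level of 16493 to 11871.

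**Figure D3:**
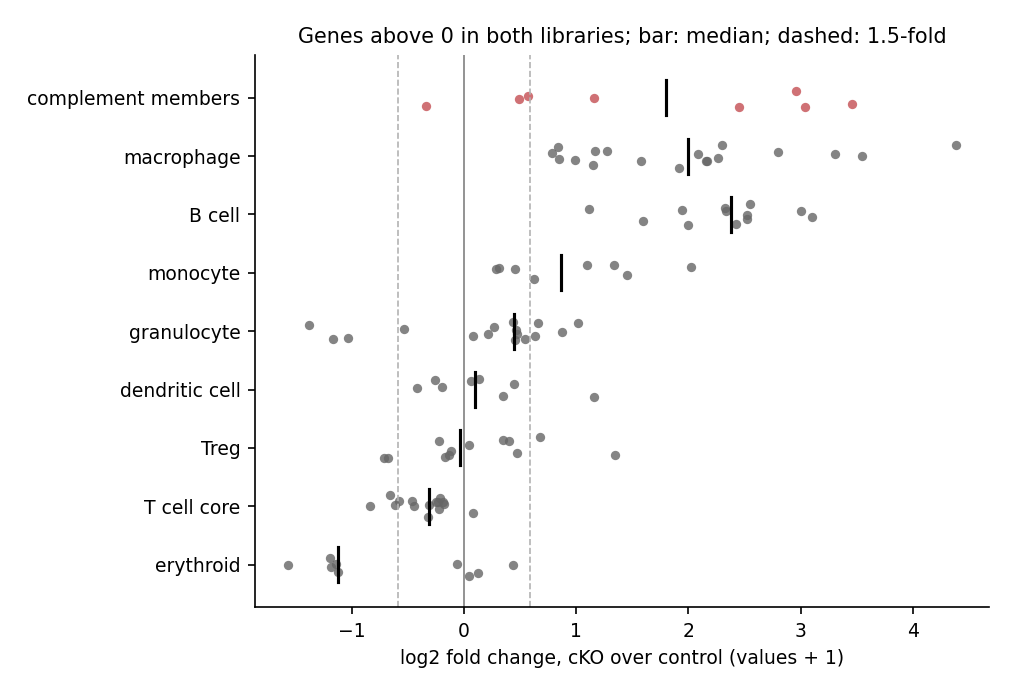
Log2 fold change (cKO over control, levels plus 1) of the complement genes in red and of cell type markers in grey, for genes above 0 in both libraries, with 1 point per gene and a black bar at the median of each row. The medians are 1.80 for the complement genes, 2.0 for the macrophage markers, 2.38 for the B cell markers and 0.45 for the granulocyte markers, and the complement genes spread from C3ar1 below 0 to C1qb at 3.46.

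The rest of the complement system was taken from a list of 51 genes. Of the 41 with a mean level of at least 1, 17 (41.5%) passed the 1.5-fold threshold as higher in the cKO library and 13 (31.7%) as lower, beside 17.2% and 24.2% of all genes. The median log2 fold change of these genes was 0.31. All but 2 of the lower ones had fewer than 20 reads in both libraries together, and with a minimum mean level of 10 there were 15 higher and 1 lower among 26 genes, beside 15.4% and 14.9% of all genes. Among the 30 genes above 0 in both libraries 16 were higher and 3 lower, beside 15.8% and 13.7% of all genes. With the macrophage markers set equal 7 of 41 (17.1%) were higher and 24 (58.5%) lower, beside 5.61% and 82.0% of all genes. In all, 27 genes reached 20 reads over both libraries, of which 26 are given by role.

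Among the partners of C1q, the protease-like gene C1rl had 191 reads in the control and 366 in the cKO library, for a log2 fold change of 1.17 (95% interval 0.92 to 1.43). C1ra, which encodes the protease C1r, had 4 and 20 reads, and 50.8% of its windows occur in other genes, mostly its copy C1rb. C2, the protease subunit of the classical convertase, had 16 and 33 reads, with a log2 fold change of 1.23 (0.38 to 2.24). It shares 41.5% of its windows, mostly with the read-through gene Gm20547, which has no row in the tables. The inhibitor of C1r and C1s, Serping1, was at 0 in both libraries. Genes with fewer reads, named after their values were seen, lay on the other side. C1s1 and C1s2, for the protease C1s, had 12 and 7 reads in the control library, C1rb had 3, and all of them were at 0 in the cKO library. In this role 3 of 6 genes were thus higher and 3 lower, beside 17.2% and 24.2% of all genes. Apart from C1rl none of the 6 exceeded 33 reads in either library. The log2 intervals of the lower genes ended at -1.24 for C1s1, -0.29 for C1s2 and 1.51 for C1rb, so that of C1rb includes 0. Zeros were common near the depth of C1s1, where 49.8% of all genes (10 to 19 control reads) had no cKO reads. The cause of these zeros was not tested.

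In the lectin pathway the ficolin genes behaved differently from each other. Fcna, the macrophage ficolin, had 66 reads in the control and 266 in the cKO library, for a log2 fold change of 2.23 (95% interval 1.85 to 2.66). Fcnb, the ficolin of myeloid precursors, had 879 and 858 reads, and its log2 fold change was 0.20 (0.06 to 0.34). Both intervals hold counting error only, so the contrast between these ficolins was not tested. The collectin gene Colec10 had 11 and 38 reads and Colec12 had 15 and 13. Masp2, a lectin pathway protease, had 20 and 0 reads, but 52.5% of its windows occur in Tardbp on the other strand, whose reads cannot be separated unless strand was used in the counting.

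In the alternative pathway Cfb, which supplies the convertase protease, had 87 and 135 reads, with a log2 fold change of 0.86 (0.47 to 1.27), with 73.0% of its windows shared with Gm20547. In the terminal pathway no gene other than C6 exceeded 22 reads in either library. C8g had 9 and 22 reads and overlaps Fbxw5 on the opposite strand. The C5 gene Hc had 14 and 5 reads, and C7, C8a and C9 were at 0 in both.

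Among the regulators, the clusterin gene Clu, whose product binds terminal complexes, had 27 and 109 reads, with a log2 fold change of 2.20 (95% interval 1.63 to 2.91). The membrane inhibitor Cd55, which speeds the decay of convertases, had 1637 and 3041 reads, with a log2 fold change of 1.13 (1.04 to 1.21). Cd46, a cofactor for C3b and C4b cleavage, had 37 and 118 reads, a log2 fold change of 1.88 (1.36 to 2.48), and shares 13.5% of its windows with an antisense gene. Cd55b, a copy of Cd55, had 12 and 28 reads. Cr1l, the rodent regulator Crry, had 931 and 1071 reads, with a log2 fold change of 0.44 (0.31 to 0.56). Cd59a, which blocks the membrane attack complex, went the other way with 109 and 43 reads, with a log2 fold change of -1.09 (-1.65 to -0.59).

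Complement receptors outside the 9 genes were led by Cr2, the receptor for C3 fragments on B cells and follicular dendritic cells. It had 793 reads in the control and 4307 in the cKO library, for a log2 fold change of 2.67 (95% interval 2.56 to 2.79). Cr2 reads per 1000 B cell marker reads were 86.6 and 109. The integrin genes Itgam and Itgax, whose products pair with that of Itgb2 as receptors for C3 fragments, had log2 fold changes of 0.66 (0.61 to 0.70) and 0.65 (0.53 to 0.76). Itgam had 7733 and 10372 reads, and 66.3% of its windows occur in Gm49368, which has no row in the tables. Itgb2 had 11662 and 12372 reads, with a log2 fold change of 0.32. Vsig4, a C3b receptor of tissue macrophages, had 19 and 18 reads, with a log2 fold change of 0.15 (-0.86 to 1.16). Cd93, long known as a C1q receptor candidate, had 1222 and 1414 reads, with a log2 fold change of 0.44. C1qbp and Calr, widely expressed genes whose products can bind C1q, were at -0.56 and -0.40, from 2649 to 1530 and from 16396 to 10585 reads.

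**Figure D4:**
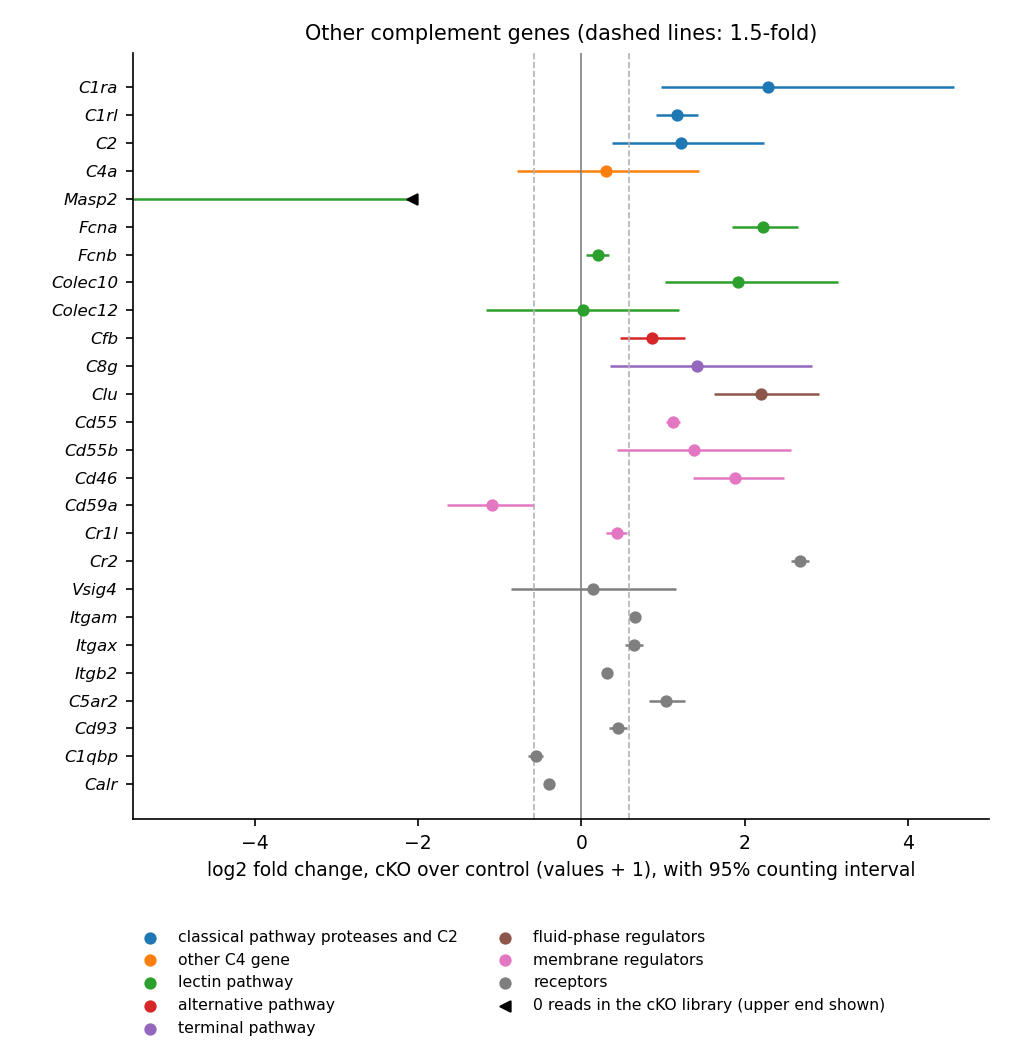
Log2 fold change (cKO over control, levels plus 1) of 26 other complement genes that reached 20 reads over both libraries, coloured by role, with 95% counting intervals as lines and Masp2, at 0 reads in the cKO library, drawn as the upper end of its interval. Cr2 at 2.67, Fcna at 2.23 and Clu at 2.20 lie far to the right, Cd59a at -1.09 lies to the left, and Fcnb and Vsig4 lie between the 1.5-fold lines as points.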

How the data were processed

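RNA-seq was performed on 1 library of splenic Treg cells per genotype. The authors aligned the reads to mm10 with TopHat according to the paper, while the submitters' processing notes name bcl2fastq 2.0, STAR, StringTie and DESeq2 without a role. The annotation, the counting and any filter are not given in the sources used here. The deposited values are a signal, that is, whole read counts scaled by 1 factor for each library. Dividing by the smallest value above 0, which was 0.967 in the control and 1.14 in the cKO library, recovered whole reads for 100% of the values (tolerance 0.001 reads). Every total is that of the recovered reads.

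A gene was called higher or lower at 1.5-fold, the threshold of the study's methods, on log2 levels with a pseudocount of 1 and a minimum mean level of 1. The recovered reads of the 14863 genes whose reads came to 10 or more over both libraries were also put to an exact binomial test, two-sided, with TMM-scaled totals. At a Benjamini-Hochberg adjusted p under 0.1 and 1.5-fold it called 4814 genes, and with the exact test of edgeR, for which a biological coefficient of variation of 0.4 was assumed, 798 were called. These tests compare the libraries and not the genotypes, and no p-value is given for a gene. The binomial test was tested on simulated data of 14863 genes, whose reads were drawn with counting error alone. It called 91.5% of 200 genes changed by 2 on the log2 scale and 0.0477% of the others. Of the intervals, 95.7% held the true ratio. The frequent zeros of the real data at low reads were not simulated, so these shares do not carry over to genes with few reads.

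The 9 genes and all lists were chosen with earlier results of these data known, and the lists were written from general knowledge. Named genes were the 9, other complement genes that reached 20 reads over both libraries, some with fewer, and the overlapping genes. Leading or absent markers were named for some of the cell types. Some macrophage markers were named for how they stood to the C1q chains, after their values were seen. With 2 libraries such a pattern is a single ratio. Trac and Ahsp were not found, and 1 other complement gene that reached 20 reads is counted but not reported by name here. Of the genes, 20516 matched GENCODE vM21 (GRCm38, the build mm10 names) by symbol, and exon lengths are unions over its transcripts. Windows of 50 bases were compared on both strands. The analysis used Python 3.11.15, numpy 2.4.6, scipy 1.17.1, pandas 2.3.3, matplotlib 3.10.9, R 4.3.3 and edgeR 4.0.16.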

Additional observations from a re-analysis of the deposited data

How the results depend on the processing

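No paired analysis was possible because there is only 1 library per genotype, and no library could be left out. Under pseudocounts of 0.1 and 5, with low values kept and with TMM scaling, every count stayed within 1.5 times its main value, and the summed C1q chains stayed within their counting interval. Of the 9 log2 fold changes, all stayed within their intervals with a pseudocount of 0.1 and with TMM scaling. C6 did not with a pseudocount of 5, since its value rests on the pseudocount, nor did C3 with scaling to library totals.

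Holding T cell core genes equal brought the summed C1q chains to 3.48 and the number of all genes at least 1.5-fold higher to 4929. With the macrophage markers set equal, the summed C1q chains were at 2.01. The counts of higher and lower genes were then 5 and 2 for the 9 complement genes, 7 and 24 for the other complement genes, and 927 and 13562 for all genes. Without Lyz2 in that list, a setting chosen after seeing the data, the C1q chains were at 1.44, the counts were 5 and 3, 3 and 28, and 578 and 15018, and C5ar1 reversed to -0.55. The shift of each scaling applies to all genes alike. A minimum mean level of 10 left 1 of the other complement genes and 2035 of all genes lower. Keeping only genes above 0 in both libraries left 3 and 1904 lower. A 2-fold threshold left 1722 of all genes higher. Among all genes the higher ones made up 41.6% of those past the threshold as deposited, 60.8% after scaling to T cell core genes and 6.40% with the macrophage markers set equal. The exact binomial test called 4814 genes on recovered reads and the exact test of edgeR, with an assumed coefficient of variation of 0.4, called 798. These differ in the test and in the assumed spread.

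With 1 library per genotype the depth sets counting error alone. Among control genes of 10 to 19 reads, 49.8% were listed at 0 in the cKO library, and the cause was not tested.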
